A study of Mus musculus with 6 samples.

Results

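The glucocorticoid receptor gene Nr3c1 and 9 genes that glucocorticoid hormones are known to induce (Fkbp5, Tsc22d3, Zbtb16, Sgk1, Klf9, Klf13, Errfi1, Zfp36l2 and Tgm2) were followed in megakaryocyte-erythroid progenitors, the shared precursors of erythrocytes and platelets. These 10 genes were taken by name from a table of 55487 genes, and all 10 were found. Marrow of 8 weeks old C57BL/6 mice, wild type in both groups, was the source of the sorted cells, either from control animals (3 libraries) or from animals fasted for 6 h (3 libraries), and bulk poly(A) RNA was sequenced. The study asked how short fasting acts on red cell formation. The labels do not say whether a library came from 1 animal or a pool, so p-values measure the spread between these libraries, which may be in part technical.

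Glucocorticoids such as corticosterone enter cells and bind the receptor, a transcription factor held in the cytosol by the chaperone HSP90 and its partners. On binding, the co-chaperone FKBP5 in this complex is replaced by FKBP4, and the receptor enters the nucleus and acts on DNA at palindromic response elements, while FKBP5, the product of an induced gene, lowers the affinity of the receptor for hormone and closes a feedback loop. Blood corticosterone varies over the day and is known to be raised by food deprivation, and glucocorticoids are known to sustain self-renewal of early erythroid progenitors under stress, in part through the RNA-binding protein ZFP36L2.

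Promoter windows of 300 bases, from 250 bases before to 50 after a transcription start, were read from RefSeq (GRCm38.p6). The table held 14 windows for 6 of the 10 genes (Errfi1, Klf13, Sgk1, Fkbp5, Klf9 and Tsc22d3). They are shown because the palindrome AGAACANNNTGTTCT is the textbook site of the receptor. Both strands were searched for this palindrome, for its hexamer AGAACA, which also lies within every full palindrome, and for TGACGTCA, the cyclic AMP response element, a site of the fasting-responsive factor CREB. The full palindrome was present in 1 of the 14 windows, at an internal start of Sgk1, against 3 of all 32851 windows (0.00913%). The hexamer was present in 4 of the 14 windows, of Sgk1 and Tsc22d3, and in 19.0% of all windows. TGACGTCA was present in 1 of the 14 windows, of Errfi1, and in 1.79% of all windows. Capitals mark the matches, 4 windows are printed, and that of Fkbp5, which held no match, is given because the values turn on this gene. The match letters are a description of these windows and do not show binding. The windows are chr10:21993640-21993939 (plus strand) for Sgk1, with the palindrome starting 189 bases before the transcription start, chrX:140600473-140600772 (minus strand) for Tsc22d3, chr4:150854820-150855119 (plus strand) for Errfi1 and chr17:28486100-28486399 (minus strand) for Fkbp5.
Sgk1: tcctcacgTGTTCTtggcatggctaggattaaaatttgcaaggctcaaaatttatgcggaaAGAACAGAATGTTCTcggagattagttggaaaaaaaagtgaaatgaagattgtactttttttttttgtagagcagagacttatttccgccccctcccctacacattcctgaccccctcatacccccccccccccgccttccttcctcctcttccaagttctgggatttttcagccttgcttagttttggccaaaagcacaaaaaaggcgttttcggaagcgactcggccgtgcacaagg
Tsc22d3: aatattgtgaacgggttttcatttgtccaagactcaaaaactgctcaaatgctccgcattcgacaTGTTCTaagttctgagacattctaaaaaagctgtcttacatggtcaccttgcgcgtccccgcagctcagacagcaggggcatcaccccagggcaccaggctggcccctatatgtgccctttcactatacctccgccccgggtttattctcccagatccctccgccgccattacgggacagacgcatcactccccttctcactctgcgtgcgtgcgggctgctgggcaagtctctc
Errfi1: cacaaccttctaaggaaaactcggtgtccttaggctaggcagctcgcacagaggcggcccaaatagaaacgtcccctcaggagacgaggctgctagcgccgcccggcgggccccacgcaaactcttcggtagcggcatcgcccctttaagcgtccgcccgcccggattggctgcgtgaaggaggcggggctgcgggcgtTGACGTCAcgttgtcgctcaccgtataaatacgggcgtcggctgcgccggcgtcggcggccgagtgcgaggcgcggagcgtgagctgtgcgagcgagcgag
Fkbp5: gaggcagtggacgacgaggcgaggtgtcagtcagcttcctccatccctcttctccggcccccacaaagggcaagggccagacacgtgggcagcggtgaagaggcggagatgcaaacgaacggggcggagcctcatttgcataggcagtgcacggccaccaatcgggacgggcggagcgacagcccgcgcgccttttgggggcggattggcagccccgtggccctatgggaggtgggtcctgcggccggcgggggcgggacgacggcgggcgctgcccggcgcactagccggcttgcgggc

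Libraries held 22445970 to 30246110 gene counts in the control group and 12797144 to 18225191 in the fasted group. Genes silent in blood cells also had counts, and 1466 odorant and vomeronasal receptor genes gave the background rate of each library, 8.99 to 14.7 counts per kilobase under control conditions and 14.2 to 16.0 after fasting. Spread over all exons, this rate was 3.90 to 8.59% of the counts under control conditions and 11.5 to 14.6% after fasting, with no overlap. Tests were therefore run on the 10641 genes with at least 5 times the background, with TMM scaling from the same genes. Of 12 erythroid and megakaryocyte markers of the labelled cells, 10 reached that level. All 12, led by Car1, Klf1 and Gfi1b, summed to 2292 to 4033 CPM (counts scaled to library size with TMM factors) under control conditions and 3343 to 4848 CPM after fasting. Directions within this list differed. Pf4 was lower and Vwf, below 5 times the background, was higher in every fasted library than in any control library, and the rest overlapped. Granulocyte and monocyte markers (12 genes, led by Mpo, Elane and Ctsg) summed to 3779, 12421 and 18823 CPM under control conditions (libraries 1 to 3) and to 4690, 3151 and 1896 CPM after fasting (libraries 1 to 3), so control libraries 2 and 3 held far more of this RNA than the other 4. In bulk RNA, fewer cells of a type and less RNA per cell cannot be told apart.

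Of the members, 3 had higher values in every fasted library than in any control library, Fkbp5, Tsc22d3 and Errfi1, with differences of 1.67-fold, 1.58-fold and 1.82-fold. The receptor gene itself had nearly equal means, at 1.00-fold (0.829 to 1.22 at 2 SE either side). Sgk1, Klf9, Tgm2, Klf13 and Zfp36l2 overlapped between the groups, and Zbtb16 lay below 5 times the background and was not tested. No member passed edgeR's quasi-likelihood test with Benjamini-Hochberg adjustment, which called 0 of 10641 genes (0.0%) at an adjusted p under 0.05. At an unadjusted p under 0.05 it had 1228 genes higher (11.5%) and 883 lower (8.3%), limma-voom also called 0 (1267 higher and 821 lower unadjusted), and DESeq2 called 327 higher (3.07%) and 176 lower (1.65%), Errfi1 and Fkbp5 among the higher. Of the 9 members tested, 8 had a log2 fold change above 0, against 52.3% of all tested genes, and their median was 0.34 against 0.02. That median was 0.80 without control library 3, 0.56 without control library 2 and between 0.26 and 0.46 without any 1 of the other 4. Fasted libraries lay wholly above control libraries for 3 of the 9 members and for 14.4% of all tested genes.

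**Figure D1:**
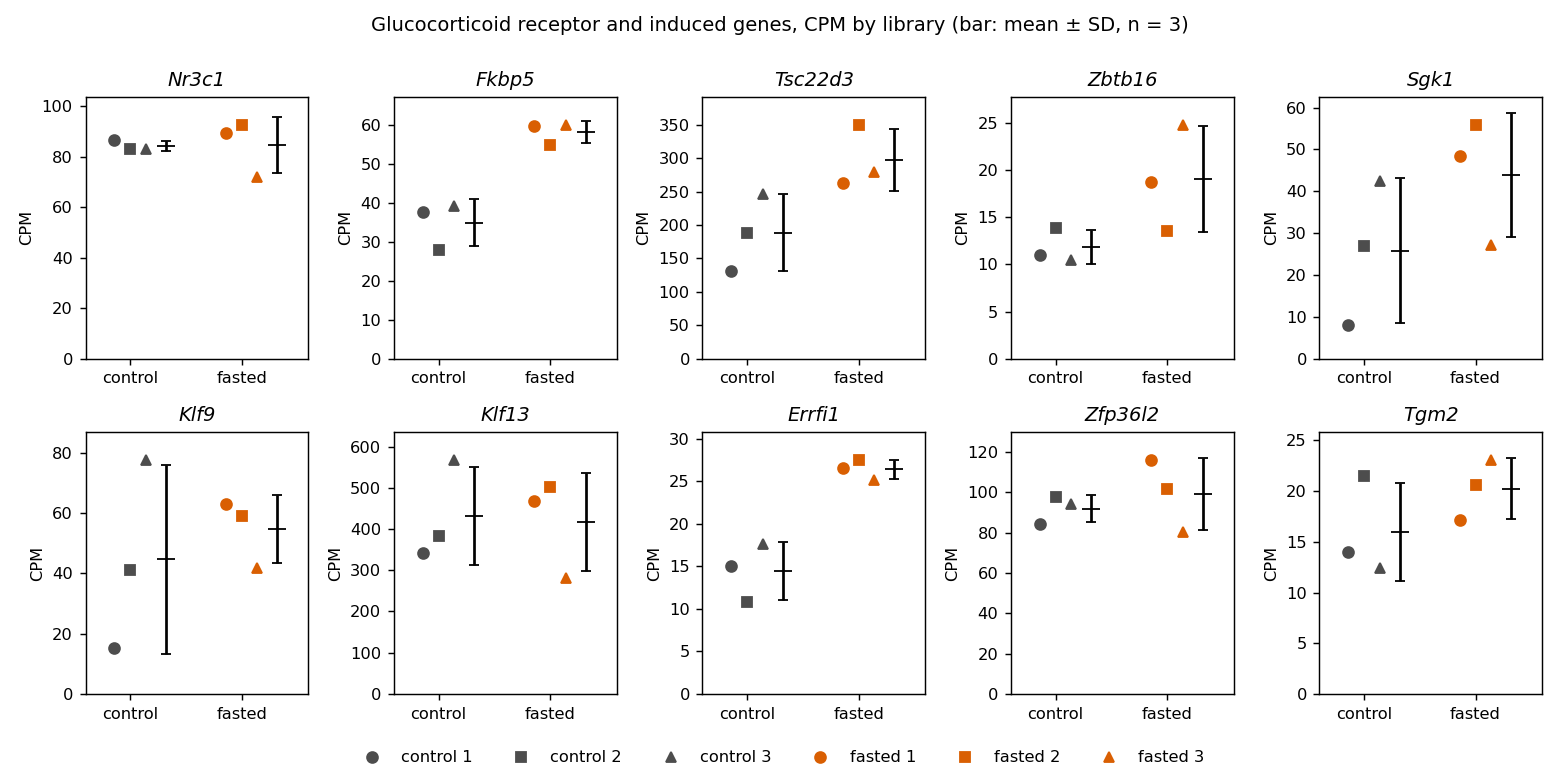
CPM (vertical axis, from 0) of each of the 10 genes in the 3 control (grey) and 3 fasted (orange) libraries, 1 panel a gene, with marker shapes for library numbers and black bars for the mean ± SD (n = 3). Fasted values lie above every control value for Fkbp5, Tsc22d3 and Errfi1, while control library 1 is the lowest of all 6 for Sgk1, Klf9 and Tsc22d3.

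The receptor gene Nr3c1 (ENSMUSG00000024431.15, GRCm38 chromosome 18, 39410545 to 39519421, minus strand) encodes the hormone-binding transcription factor through which the other 9 genes are induced. It had 86.6, 83.1 and 83.0 CPM under control conditions (libraries 1 to 3) and 89.3, 92.7 and 71.8 CPM after fasting (libraries 1 to 3). The fasted values lay on both sides of the tightly grouped control values, with means of 84.2 CPM ± 2.06 and 84.6 CPM ± 11.2 (SD, n = 3 each). The fit put the log2 fold change at 0.01 (SE 0.14, edgeR adjusted p 0.983). The 3 tested genes whose values followed those of Nr3c1 most closely over the 6 libraries, each gene centred on its own mean, were Sp2, Mob2 and Rhoa, with root mean square differences of 0.025, 0.037 and 0.039 on the log2 scale against a median of 0.27 over tested genes.

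Fkbp5 (ENSMUSG00000024222.17, chromosome 17, 28399094 to 28517527, minus strand) encodes the co-chaperone that restrains the receptor, and its transcript is a widely used readout of receptor activity. Its values were 37.6, 27.9 and 39.2 CPM under control conditions (libraries 1 to 3) and 59.7, 54.9 and 60.1 CPM after fasting (libraries 1 to 3). The lowest fasted value was well above the highest control value, and the fasted libraries differed little among themselves. Means were 34.9 CPM ± 6.10 and 58.2 CPM ± 2.88 (SD, n = 3 each). The fit gave a log2 fold change of 0.74 (SE 0.17, edgeR adjusted p 0.131, DESeq2 adjusted p 0.0157). Background at the measured rate made up between 8.07 and 19.6% of its counts, depending on the library. With that part subtracted, its values were 34.1, 22.9 and 33.1 CPM under control conditions and 51.9, 47.7 and 52.7 CPM after fasting, still without overlap, for a log2 fold change of 0.76 (edgeR adjusted p 0.195). Leaving out any 1 library kept the difference between 0.56 and 0.80. The 3 tested genes nearest to Fkbp5 in pattern, 4930422I22Rik, Gm8738 and 4930481A15Rik, had root mean square differences of 0.064, 0.079 and 0.084 on the log2 scale and at most 11.98 CPM in any library.

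Errfi1 (ENSMUSG00000028967.10, chromosome 4, 150853919 to 150868892, plus strand) encodes a feedback inhibitor of the epidermal growth factor receptor family. It had 15.0, 10.8 and 17.6 CPM under control conditions (libraries 1 to 3) and 26.5, 27.5 and 25.2 CPM after fasting (libraries 1 to 3). As for Fkbp5, the fasted values formed a narrow band above all control values. Means were 14.5 CPM ± 3.43 and 26.4 CPM ± 1.16 (SD, n = 3 each). The fit gave a log2 fold change of 0.87 (SE 0.23, edgeR adjusted p 0.143, DESeq2 adjusted p 0.0178). Background made up 7.63 to 18.5% of its counts, and after subtraction the log2 fold change came to 0.92 (edgeR adjusted p 0.208) with the groups again apart.

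Tsc22d3 (ENSMUSG00000031431.13, chromosome X, 140539528 to 140600659, minus strand) encodes GILZ, a leucine zipper protein that carries part of the anti-inflammatory action of glucocorticoids. It had 131, 188 and 247 CPM under control conditions (libraries 1 to 3) and 263, 350.4 and 279 CPM after fasting (libraries 1 to 3). The groups were separate by a small gap, and the control values covered a wide range, with library 1 the lowest. Means were 189 CPM ± 57.96 and 298 CPM ± 46.4 (SD, n = 3 each). The fit gave a log2 fold change of 0.66 (SE 0.22, edgeR adjusted p 0.173, DESeq2 adjusted p 0.1104). Without control library 1 it was 0.45, and without control library 3 it was 0.88. Background was at most 2.04% of its counts in any library.

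Sgk1 and Klf9 depended on control libraries 1 and 3, in opposite directions. Sgk1 (ENSMUSG00000019970.15, chromosome 10, 21882184 to 21999903, plus strand), a kinase of ion channel and cell survival control, had 7.91, 26.98 and 42.5 CPM under control conditions (libraries 1 to 3) and 48.5, 55.9 and 27.2 CPM after fasting (libraries 1 to 3). Fasted library 3 stood at the level of control library 2, and control library 1 was far below the rest. The fit put the log2 fold change at 0.77 (SE 0.59, edgeR adjusted p 0.502), and it was 0.34 without control library 1 and 1.32 without control library 3. Klf9 (ENSMUSG00000033863.2, chromosome 19, 23141226 to 23168134, plus strand), a Krüppel-like factor gene that is also a clock-linked target of the receptor, had 15.2, 41.2 and 77.6 CPM under control conditions (libraries 1 to 3) and 63.2, 59.1 and 41.8 CPM after fasting (libraries 1 to 3). Its highest and its lowest value were both in control libraries. The log2 fold change of 0.29 (SE 0.55, edgeR adjusted p 0.790) became -0.12 without control library 1 and 0.94 without control library 3.

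Klf13 and Zfp36l2, both abundant, overlapped between the groups. Klf13 (ENSMUSG00000052040.10, chromosome 7, 63886351 to 63938915, minus strand), a relative of Klf9 with roles in lymphocytes and erythroid cells, had 343, 384 and 567 CPM under control conditions (libraries 1 to 3) and 468, 501 and 281 CPM after fasting (libraries 1 to 3). The extremes of both directions, control library 3 and fasted library 3, gave a log2 fold change of -0.05 (SE 0.26, edgeR adjusted p 0.928), which was 0.18 without the former and 0.17 without the latter. Zfp36l2 (ENSMUSG00000045817.8, chromosome 17, 84183931 to 84187947, minus strand) encodes the RNA-binding protein that delays differentiation of early erythroid progenitors. It had 84.3, 97.5 and 94.0 CPM under control conditions (libraries 1 to 3) and 116, 102 and 80.6 CPM after fasting (libraries 1 to 3). The groups overlapped, with a log2 fold change of 0.11 (SE 0.16, edgeR adjusted p 0.710). Its exons overlap 1 gene model on the other strand, AC132455.1, and whether counting used strand is not given in the sources used here.

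Tgm2 and Zbtb16 were the least abundant members per kilobase and lay on either side of the limit for testing, at 5.23 and 3.71 times the background. Tgm2 (ENSMUSG00000037820.15, chromosome 2, 158116402 to 158146436, minus strand) encodes tissue transglutaminase, a protein-crosslinking enzyme, and its exons overlap Rprd1b and Gm20412 on the other strand. It had 14.0, 21.5 and 12.4 CPM under control conditions (libraries 1 to 3) and 17.1, 20.6 and 23.1 CPM after fasting (libraries 1 to 3). Control library 2 lay among the fasted values, for a log2 fold change of 0.34 (SE 0.26, edgeR adjusted p 0.476), with 10.5 to 33.3% of the counts at the background rate. Without control library 2 the difference was 0.58 and without control library 3 it was 0.17. Zbtb16 (ENSMUSG00000066687.5, chromosome 9, 48654297 to 48836222, minus strand) encodes PLZF, a zinc finger factor of innate lymphocytes and progenitors and, in many tissues, among the transcripts most induced by glucocorticoids. It had 11.1, 13.9 and 10.5 CPM under control conditions (libraries 1 to 3) and 18.8, 13.6 and 24.9 CPM after fasting (libraries 1 to 3). Between 15.3 and 39.7% of its counts lay at the background rate, and after subtraction the values were 9.23, 11.1 and 6.76 CPM under control conditions and 13.3, 8.61 and 20.2 CPM after fasting, overlapping in both forms. When all 36508 genes that pass the count filter were tested with the factors of the genes above the 5-fold background limit, it had a log2 fold change of 0.69 (edgeR adjusted p 0.0923). That fit, chosen after seeing the data, called 4988 genes higher (13.7%), had a median of 0.82 over all its genes, and called Errfi1, Fkbp5 and Tsc22d3 (edgeR adjusted p 0.0379, 0.0299 and 0.0421). Without control library 1 it called 1365 of the 36508 genes higher, with Fkbp5 alone of the 10 (edgeR adjusted p 0.0438).

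**Figure D2:**
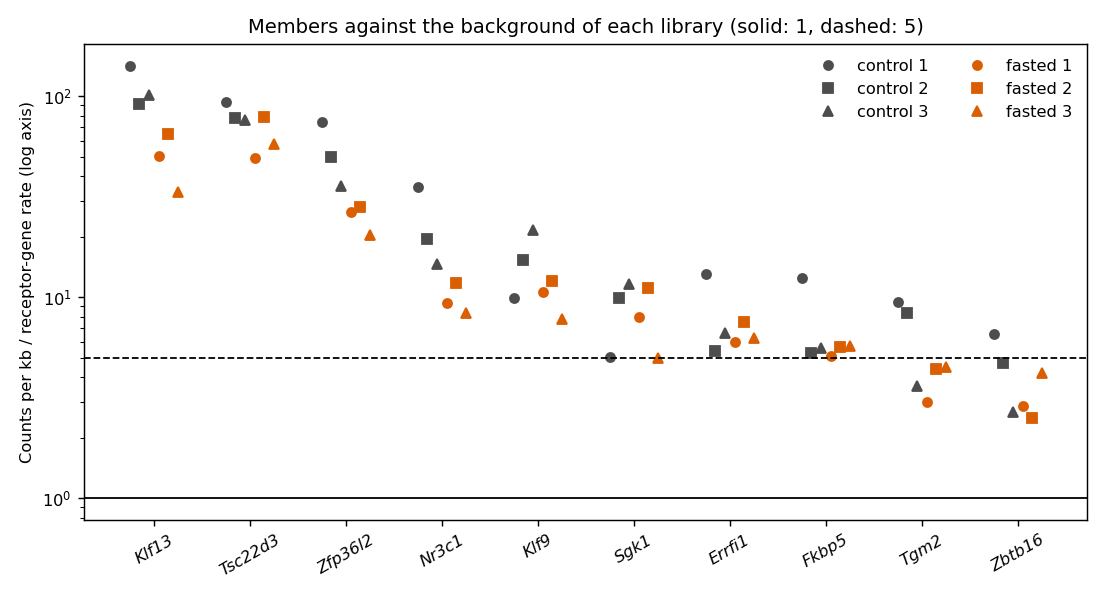
Counts per kilobase of each gene divided by the rate of the odorant and vomeronasal receptor genes in the same library (vertical log axis), for the 10 genes in order of their mean, with control libraries in grey, fasted in orange, and lines at 1 and 5. Klf13 and Tsc22d3 lie far above the background in all 6 libraries, whereas Fkbp5, Errfi1, Sgk1, Tgm2 and Zbtb16 lie within 2.52 to 13.1 times of it.

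The values against the background rate of the same library are a different view of these genes from CPM. Fkbp5 stood at 12.4, 5.30 and 5.57 times the rate under control conditions (libraries 1 to 3) and at 5.10, 5.68 and 5.68 times after fasting (libraries 1 to 3). On this scale the groups overlapped, and control library 1, with the lowest background, was the highest. Nr3c1 went from 35.2, 19.4 and 14.5 times the rate in control to 9.40, 11.8 and 8.38 times in fasted libraries, with no overlap. Both scales divide the 2 genes by the same number in a library, so the ratio of Fkbp5 to Nr3c1 is the same on each by construction. That ratio was higher in fasted libraries, while the sign of each gene alone depends on what the libraries are scaled to.

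The scaling between libraries moved all members together. When TMM factors came from all 36508 genes that pass the count filter, the median log2 fold change of the genes above the 5-fold background limit was -0.50, against 0.02 with their own factors and -0.01 with library totals. In that fit 0 members were called, against 4.97% of all genes, and edgeR adjusted p lay between 0.159 and 0.849. Under these factors no member lay wholly above the control libraries after fasting (19.8% of all genes did), Fkbp5, Errfi1 and Tsc22d3 included, and Nr3c1 and Zfp36l2 lay wholly below them (15.1%). Nr3c1, Klf13, Zfp36l2, Tgm2 and Klf9 had log2 fold changes of -0.51, -0.52, -0.39, -0.18 and -0.12, and Errfi1, Sgk1, Fkbp5, Tsc22d3 and Zbtb16 had 0.36, 0.36, 0.22, 0.19 and 0.15. All members but Nr3c1 and Klf13 lay above the median of -0.50, and these 2 lay at its level. A change of factors moves all genes by a similar amount, so a gene's place relative to the median cannot test the scaling.

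**Figure D3:**
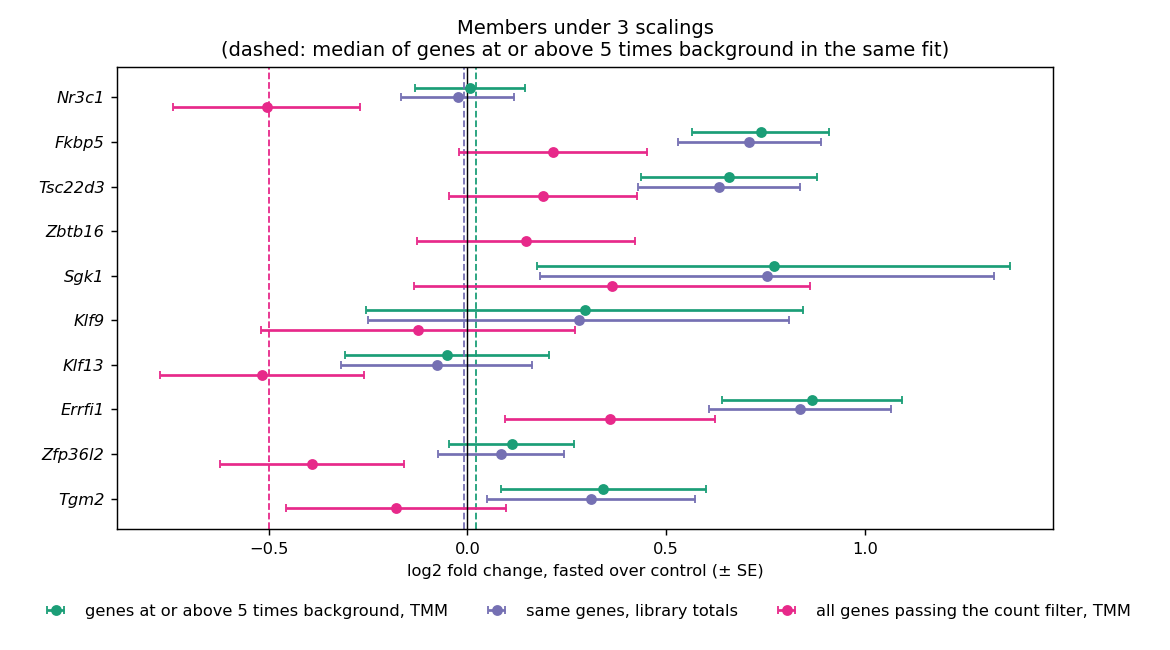
Log2 fold change of fasted over control libraries (horizontal axis, bars ± SE) for the 10 genes under 3 scalings, with a dashed line of the same colour at the median of the genes above the 5-fold background limit. Zbtb16 has a point only with factors from all filtered genes. Under these factors the other 9 genes and the median, at -0.50, lie further left by a similar amount. All genes but Nr3c1 and Klf13 lie to the right of the median, a place that a change of factors hardly alters.

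Per kilobase, which allows levels of different genes to be compared, Klf13 and Tsc22d3 were the highest members (56.3 and 56.0 CPM per kb over all 6 libraries), followed by Zfp36l2 (27.1), Nr3c1 (11.0), Klf9 (10.3), Sgk1 (7.10), Errfi1 (5.70), Fkbp5 (4.92), Tgm2 (3.93) and Zbtb16 (2.92). Only Zfp36l2 and Nr3c1 differed as neighbours in this order beyond the range of their libraries, and the other 8 pairs of neighbours overlapped. Tsc22d3 had 43.5 CPM per kb ± 13.4 under control conditions and 68.6 CPM per kb ± 10.7 (SD, n = 3 each) after fasting, while Klf13 had 57.3 ± 15.9 and 55.3 ± 15.8. Fkbp5 had 3.69 CPM per kb ± 0.644 under control conditions and 6.15 CPM per kb ± 0.304 after fasting, against 10.96 ± 0.268 and 11.0 ± 1.46 for Nr3c1.

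Ratios of genes within a library do not depend on the scaling, and 6 pairs were compared. Fkbp5 over Fkbp4, the co-chaperones that compete for the receptor complex, had log2 ratios of -6.99, -7.04 and -6.42 under control conditions (libraries 1 to 3) and -5.50, -5.73 and -5.57 after fasting (libraries 1 to 3). The groups were apart by more than their spread, and the ratio was 2.33-fold higher in fasted libraries. Fkbp5 over its regulator Nr3c1 had log2 ratios of -1.50, -1.87 and -1.38 under control conditions and -0.88, -1.06 and -0.56 after fasting, again apart, with a 1.69-fold difference. Both had p = 0.1 in an exact two-sided permutation test, below which 3 against 3 libraries cannot go, and 0.3 adjusted over the 6 pairs.

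The other 4 ratios overlapped between the groups. Tsc22d3 over Tsc22d4, a family member, differed by 0.80 on the log2 scale (exact permutation p = 0.2), and control library 3 (1.56) lay above fasted library 1 (1.40). Without control library 1 the difference was 0.48. Sgk1 over Sgk3 differed by 0.99 (exact permutation p = 0.2) and Klf9 over Klf13 by 0.62 (exact permutation p = 0.3), each with control library 1 far below the others, at -1.42 and -3.85. Without that library these differences were 0.32 and 0.14, and without control library 3 that of Klf9 over Klf13 was 0.95. Zfp36l2 over Zfp36l1 differed by -0.52 (exact permutation p = 0.3), the 1 pair in which the member had the lower ratio in fasted libraries. Zfp36l1, a relative that acts on similar RNAs, had 55.7, 88.0 and 85.4 CPM under control conditions and 101, 139 and 109 CPM after fasting.

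**Figure D4:**
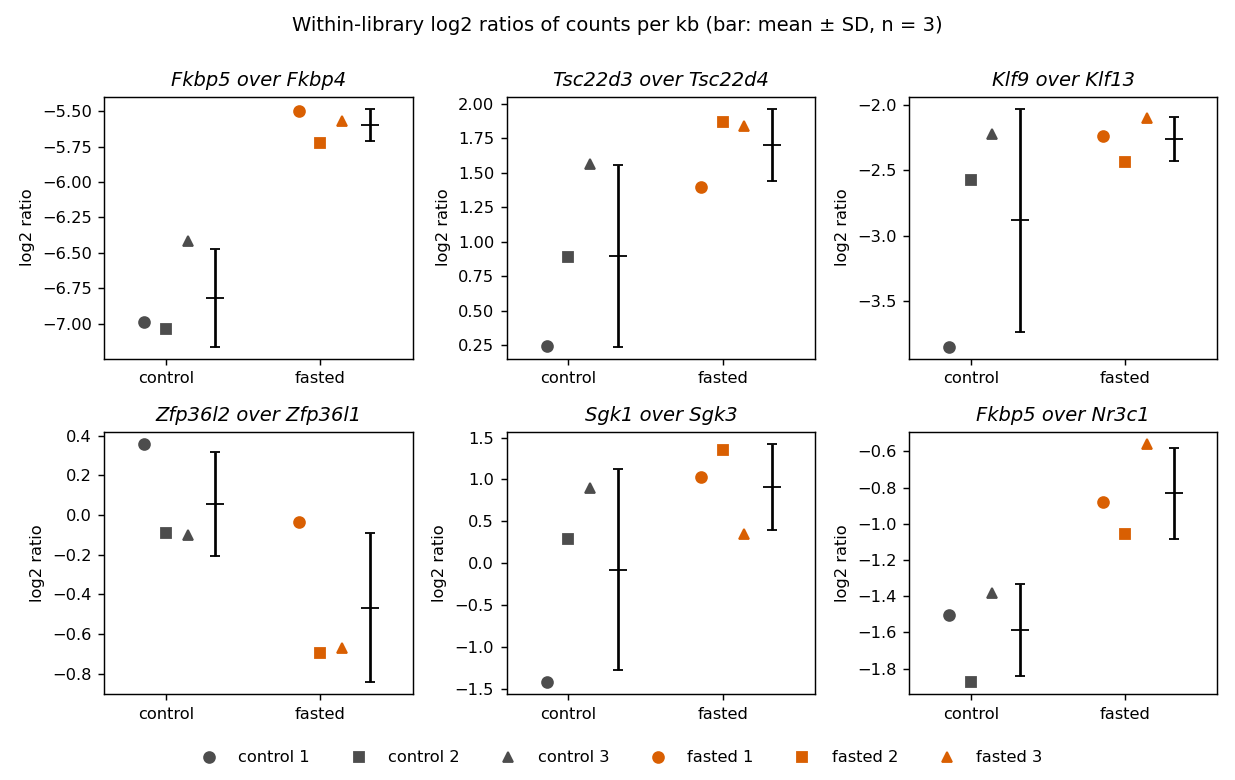
Log2 ratio of counts per kilobase of 2 genes in the same library (vertical axis, own range in each panel) for 6 pairs in control (grey) and fasted (orange) libraries, with black bars for the mean ± SD (n = 3). Fkbp5 over Fkbp4 and Fkbp5 over Nr3c1 separate the groups, and the other 4 pairs do not.

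The chaperones that hold the receptor in its hormone-binding state were as a list lower in fasted libraries. Of 14 genes, all tested, 11 had a log2 fold change below 0, and for 10 every fasted value lay below every control value, against 12.9% of all tested genes in that direction. The list median was -0.22 against 0.02 for all tested genes, and 0 were called (lowest edgeR adjusted p 0.161). Fkbp4, which carries the receptor along microtubules, had 1411, 1085 and 989 CPM under control conditions (libraries 1 to 3) and 798, 858 and 840.2 CPM after fasting (libraries 1 to 3), a log2 fold change of -0.48 (SE 0.15, edgeR adjusted p 0.161). The HSP90 genes Hsp90ab1 and Hsp90aa1 had -0.22 (SE 0.13) and -0.23 (SE 0.13), both without overlap, and Hspa8, the constitutive HSP70 and the most abundant of the list, had -0.02 (SE 0.18). The other 7 that did not overlap, named for that, were Ppid, Ppp5c, Cdc37, Ptges3, Hspa4, Ahsa1 and Stip1. Dnajb1, a heat-inducible HSP40, had 0.39 (SE 0.21), which was 0.20 without control library 1 and 0.61 without control library 3. The co-chaperone genes Bag1 and Dnaja1 had 0.19 and 0.05, and Bag1 had -0.10 without control library 1. Fkbp4, Hsp90aa1 and Hspa8 had -0.32, -0.14 and 0.17 without that library. With background subtracted, 7 of the 14 did not overlap and the median was -0.15. With factors from all filtered genes the median was -0.74, against -0.50 for the genes above the 5-fold background limit in that fit. Called lower there were 5, Ppid, Fkbp4, Ptges3, Ahsa1 and Stip1, against 3.82% of all genes. That share is over all 36508 genes, whose median was 0.32, so it is not a like reference for genes above the limit.

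Of 14 coregulators, which the receptor recruits at its sites, 13 were tested, 0 were called and the median was 0.11. Smarca4, the remodelling ATPase, Hdac3 and Med1 were the most abundant per kilobase, with log2 fold changes of 0.04, -0.05 and -0.24. Every fasted value lay above every control value for genes that include, named here for this reason after their values were seen, the corepressor Nrip1 (0.64, SE 0.16), the acetyltransferase Ep300 (0.39, SE 0.17) and the methyltransferase Carm1 (0.33, SE 0.19). Nrip1 was called by DESeq2 and had an edgeR adjusted p of 0.131. With factors from all filtered genes the list median was -0.36, against -0.50 for the genes above the 5-fold background limit in that fit. With 1 library left out the list median lay between 0.01 and 0.20, lowest without control library 2.

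A list of 36 further genes known as glucocorticoid-induced in other tissues had 24 tested and 0 called. Of the 24, 20 had a log2 fold change above 0, the median was 0.45 and 4 did not overlap, all higher (Mt2, Tnfaip3, Irs2 and Slc19a2, named for that), near the 14.4% of all tested genes. DESeq2 called Mt2 of these. With factors from all filtered genes the list median was 0.15. The phosphatase Dusp1 had 608, 966 and 586 CPM under control conditions and 866, 814 and 1237 CPM after fasting, a log2 fold change of 0.43 (SE 0.23, edgeR adjusted p 0.330), with control library 2 above 2 fasted libraries. Leaving out control library 2 gave 0.67, control library 3 gave 0.28 and fasted library 3 gave 0.22. The clock gene Per1 had 28.5, 89.6 and 70.0 CPM under control conditions and 93.0, 127 and 79.3 CPM after fasting, and its 0.67 (SE 0.41) became 0.32 without control library 1 and 0.43 without fasted library 2. Nfkbia, the NF-kappa-B inhibitor and the most abundant of the list per kilobase, had 0.72 (SE 0.82), with 116 CPM in control library 1 against 760.5 to 1582 CPM in the other 5. Leaving out that library gave 0.22, control library 3 gave 1.17 and fasted library 2 gave 0.45. The metallothionein Mt1 had 0.53 (SE 0.23) and 0.31 without fasted library 3. Ddit4, an inhibitor of mTORC1, had 0.60 (SE 0.38), and leaving out control library 1 gave 0.33, control library 3 gave 1.09 and fasted library 2 gave 0.30. Without control library 1 the list median was 0.32. Bcl6, a transcriptional repressor named here after its values were seen, lay at 5.51 to 7.70 CPM under control conditions and 19.0 to 25.7 CPM after fasting, below 5 times the background, and was called in the fit of all filtered genes (1.15% higher, log2 fold change 1.14, edgeR adjusted p 0.0367).

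The 13 genes that glucocorticoids repress through AP-1 and NF-kappa-B gave 8 tested and 0 called, and 7 of the 8 had a log2 fold change above 0, with a median of 0.81. These medians moved with control library 1. Tnf had 2.21, 51.1 and 76.5 CPM under control conditions and 104, 109 and 48.2 CPM after fasting, and its 1.01 (SE 1.11) became 0.45 without control library 1 and 1.70 without control library 3. The chemokines Ccl4 and Ccl3 had 0.91 and 0.70, and 0.38 and 0.18 without that library, where the list median was 0.34. Without control library 3 the median was 1.34, and Ccl3 had 1.19 without control library 2. None of the 8 tested genes separated the groups. Of the 5 untested genes, below 5 times the background, Il6, Nos2 and Il1a, named for that, had higher values in every fasted library than in any control library. With the same factors, so did 14842 of the 36508 genes that pass the count filter. Il6 had 4.49, 6.95 and 6.77 CPM under control conditions and 13.6, 9.88 and 12.8 CPM after fasting, at 4.55 times the background, and Nos2 and Il1a stood at 2.16 and 0.922 times.

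Genes of steroid supply and related receptors were low, between 0.623 and 5.31 times the background. Of 10, only H6pd, which supplies the cofactor of local cortisone reduction, reached 5 times the background, at 24.9, 17.9 and 20.7 CPM under control conditions and 25.6, 11.9 and 19.8 CPM after fasting. Its log2 fold change of -0.15 (SE 0.29) became 0.07 without fasted library 2. The drug and steroid pump gene Abcb1b had 21.7, 16.5 and 26.9 CPM under control conditions and 35.2, 34.2 and 29.2 CPM after fasting, with no overlap but at 4.37 times the background. Hsd11b1, which regenerates active glucocorticoid inside cells, had 4.96, 14.1 and 23.0 CPM under control conditions and 8.69, 9.37 and 11.8 CPM after fasting, at 3.83 times the background. Nr3c2, the mineralocorticoid receptor that also binds corticosterone, had at most 17.0 CPM and stood at 1.82 times the background.

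Of 16 paralogues of the members, 10 were tested and 0 called, with a median of 0.48, and Zfp36 and Zfp36l1 were higher (14.4% of all tested genes) and Fkbp4 lower (12.9%) without overlap. Zfp36, the paralogue of Zfp36l2 and an immediate early gene, had 208, 872 and 643 CPM under control conditions and 1089, 958 and 989 CPM after fasting, and its 0.82 (SE 0.49) became 0.42 without control library 1. Klf10 had 0.53 (SE 0.58), and 0.17 without that library, where the list median was 0.15. Without control library 3 Klf10 had 1.07 and the list median was 0.72, and without fasted library 2 they were 0.22 and 0.26. Klf16, Tsc22d4 and Sgk3 had 0.17, -0.11 and 0.02. Fkbp4 and Zfp36l1 are described with the ratios above.

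**Figure D5:**
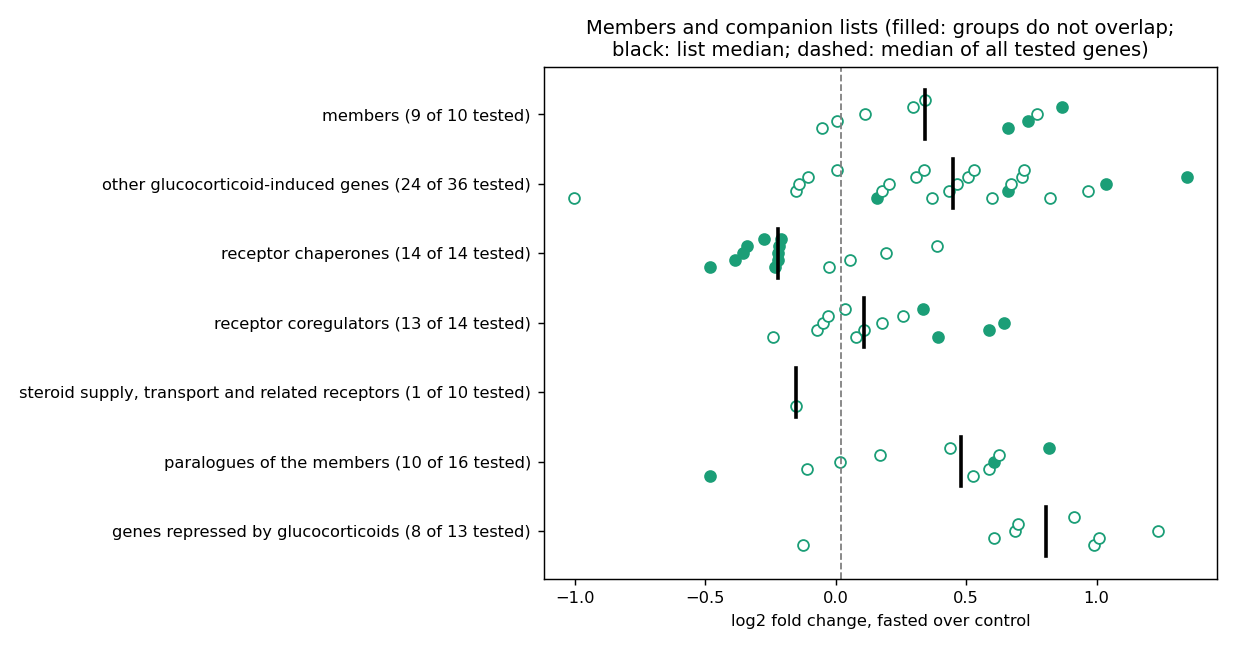
Log2 fold change of fasted over control libraries (horizontal axis) for each tested gene of the members and of 6 companion lists, filled where the groups do not overlap, with a black bar at the list median and a dashed line at the median of all tested genes. The chaperones cluster below 0 around -0.22, and the members spread from -0.05 to 0.87.

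Markers of other cells were read beside these values. Natural killer and innate lymphoid markers, cells in which Zbtb16 is known to be expressed, summed to 47.3 to 66.7 CPM under control conditions and 98.8 to 108 CPM after fasting, with 1 of 8 genes above the 5-fold background limit. Endothelial and stromal markers summed to 150.4 to 163 CPM under control conditions and 192 to 237 CPM after fasting, with 2 of 8 at that level. Macrophage markers, of cells that express Tgm2, overlapped at 71.3 to 122 CPM and 94.5 to 126 CPM (2 of 9 at that level), as did B and T lymphocyte markers at 73.8 to 136 CPM and 120 to 258 CPM (5 of 10) and mast cell and basophil markers at 116 to 220 CPM and 61.0 to 120.1 CPM (4 of 6). No marker of these lists was at 0 counts in any library. Background was not subtracted from these sums, and its share of the counts was higher in fasted libraries. Their part in the members' values was not tested.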

How the data were processed

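The authors deposited raw counts per gene for 6 libraries of polyadenylated RNA, with the exonic length of each gene. Per the submitters' processing notes, HISAT2 2.2.1, featureCounts 2.0.1 and GRCm38 were used. Strand handling, read filters and the annotation release are not given in the sources used here. Of 55487 identifiers, 54435 matched GENCODE M21 with their version, all with the deposited length, and 55227 without regard to version.

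Genes kept by filterByExpr whose mean count was at least 5 times the receptor-gene rate times their length were tested with edgeR 4.0.16 (TMM, robust glmQLFit, group as the only term, R 4.3.3), at a Benjamini-Hochberg adjusted p under 0.05. The SE is the log2 fold change divided by the square root of F. Ratios were tested by exact permutation in scipy 1.17.1. Alternatives were other gene filters and scalings, DESeq2 1.42.0, limma-voom (limma 3.58.1), background subtraction, the replicate number as a block and leaving out each library. The test was run on simulated counts with larger changes than those of the members and no background difference between the groups. That run does not show how the test performs at differences of the members' size. The members, lists and tests were chosen with earlier results of these data known. Named companions were the 3 most abundant per kilobase of each list and 11 fixed genes, beside those said to be chosen by their values. Some items of the lists are not reported here.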

Additional observations from a re-analysis of the deposited data

How the results depend on the processing

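Fkbp5, Tsc22d3, Errfi1 and Sgk1 kept a log2 fold change above 0 in each alternative in which they were tested (18 each, 19 for Tsc22d3), between 0.22 and 0.81, 0.19 and 0.88, 0.36 and 1.00, and 0.34 and 1.32. The setting with an adjusted p under 0.10 reused the main fit, so its fold changes could not differ. Scaling to the background rate was not among the alternatives, and on that scale these genes overlapped between the groups. Tsc22d3 had 94.1, 78.0 and 76.6 times the rate in control and 49.0, 79.1 and 57.6 times in fasted libraries (libraries 1 to 3). Members called higher numbered 2 with DESeq2 (3.07% of all genes in that fit). All filtered genes under factors from genes above the 5-fold background limit gave 3 (13.7%). The same factors without control library 1 gave 1 (1365 of 36508 genes). These last 2 settings were chosen after seeing the data. Over all genes, calls higher and lower numbered 420 and 1393 with all filtered genes and their own TMM factors, 511 and 1113 at or above 2 times the background, 327 and 176 with DESeq2, 4988 and 256 with all filtered genes under factors from genes above the 5-fold background limit, and 1365 and 138 with those factors without control library 1. At an adjusted p under 0.10, 0 were higher and 2 lower. With 1 library left out, calls lay between 0 and 1 higher and between 0 and 3 lower. The cause of these differences was not tested.

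The sign of small differences depended on the setting. Nr3c1 had -0.51 with all filtered genes, -0.33 at 2 times the background, -0.025 with library totals, -0.016 with RLE factors and with DESeq2, -0.0011 with limma-voom, and between -0.092 and 0.11 with 1 library left out. Klf9 had -0.12 with all filtered genes, -0.0011 at 2 times the background, between -0.12 and 0.94 with 1 library left out, and -0.12 without control library 1 under factors from genes above the 5-fold background limit. Klf13 had 0.021 at 10 times the background, 0.0097 with upper-quartile factors, 0.0099 with background subtracted, and between -0.23 and 0.18 with 1 library left out. Zfp36l2 had -0.39 with all filtered genes, -0.22 at 2 times the background, and between -0.013 and 0.24 with 1 library left out. Tgm2 had -0.18 with all filtered genes and -0.0046 at 2 times the background. All 6 ratios kept their sign, though not their size, with background subtracted and with each library left out.

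Same-numbered control and fasted libraries shared only a number: their deviations from the group means correlated at -0.17, 0.14 and -0.33 over tested genes, and not every library correlated best with its own number. With the replicate number as a block, 0 genes were called (1058 higher and 493 lower at an unadjusted p under 0.05), Fkbp5 had 0.75 (edgeR adjusted p 0.236) and Nr3c1 -0.0015. At 222 to 1055 counts a library for Fkbp5, Errfi1 and Sgk1, the share of background limits how small a difference can be read.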
